A study of Homo sapiens with 4 samples.

Results

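The 50 genes described here move proteins between the endoplasmic reticulum (ER) and the Golgi apparatus. They were taken by symbol from a list of coat subunits, small GTPases, cargo receptors, tethers and membrane fusion proteins, with no threshold on a measured value, out of 57820 gene models. All 50 had a row, and 49 passed the filter on low counts. The series held 4 RNA sequencing libraries of G401, an established kidney rhabdoid tumour line that lacks the chromatin remodelling subunit SMARCB1: 2 of BRD9 KO cells and 2 of LacZ control cells, all grown in DMEM with serum. By the general methods of the study, Cas9 lines were kept under blasticidin and guides were delivered with a puromycin vector, and what the LacZ control cells of these libraries carried is not given beyond their label. BRD9 is a bromodomain subunit of a SWI/SNF form that has no SMARCB1, and the question is which transcripts differ once it is lost. The study reports that its attempts to recover clones of G401 without BRD9 gave none. How the BRD9 KO cells of these libraries were derived, and on which day they were harvested, is not given in the sources used here.

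Newly made secretory and membrane proteins enter the ER through the Sec61 channel. COPII, a coat built on the small GTPase SAR1, buds vesicles that carry them forward to the Golgi, while COPI, a coat recruited by ARF GTPases, returns escaped ER proteins and cargo receptors. Tethers catch the arriving vesicles and SNARE proteins fuse them with the target membrane, and in every dividing cell this traffic supplies membrane and secreted cargo.

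The libraries held between 15053247 and 19559290 estimated counts, of which mitochondrially encoded genes took 8.15% to 8.48%. A count of 3, the floor for a gene listed at 0, was worth 0.153 to 0.199 CPM (counts scaled to the library total). Transcripts of the targeted gene BRD9 (ENSG00000028310.13, chromosome 5) stood at 29.4 and 26.8 CPM in the BRD9 KO libraries and 48.2 and 53.8 CPM in the controls (log2 fold change -0.86 ± 0.07, adjusted p = 2.84e-09), and an exon of ZDHHC11 overlaps it on the same strand. SMARCB1, absent in this line, had 0 counts in all 4 libraries, as had PTPRC and CD3E of blood cells and CDH5 of endothelium. EPCAM of epithelium had 3 to 6 counts and ALB of liver at most 1. These are bulk libraries, in which a change in every cell and a change in the share of cells that express a gene cannot be told apart.

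Levels are given in CPM scaled between libraries (TMM) for comparisons of 1 gene, and in TPM (a transcript's share of its library per length) for comparisons between genes. Differences are log2 fold changes of CPM, BRD9 KO minus LacZ control, with their standard error, from the quasi-likelihood test of edgeR. A gene passed at an adjusted p under 0.05 (Benjamini-Hochberg over 15288 tested genes). A lone value in brackets after a gene symbol is its log2 fold change of CPM. At this threshold 38.6% of all tested genes passed, 20.5% higher and 18.1% lower in BRD9 KO. Among the 9987 tested genes averaging 10 CPM or more, the range in which every tested member lay, 49.0% passed, 27.7% higher and 21.2% lower. Within that range these shares were not matched to the members for level.

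Of the 49 tested members 28 passed (57.1%), 23 of them higher (46.9%) and 5 lower (10.2%), and 21 did not. The 5 lower members were SEC23A, COPG2, ARF5, TMED10 and KDELR1. The changes were small: no member differed by 1.5-fold, and the largest fitted fold was 1.33, for KDELR3. The median log2 fold change of the members was 0.07, beside -0.01 over all tested genes and 0.02 over those with at least 10 CPM. In 28 of the 49 both BRD9 KO libraries lay above both controls and in 10 both lay below, where 34.1% and 34.5% of all tested genes did so. These shares include genes with low counts, and were not taken for those with at least 10 CPM. With LacZ control replicate 2 left out, 14 members passed as higher, and with LacZ control replicate 1 left out, 3 passed as lower.

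**Figure D1:**
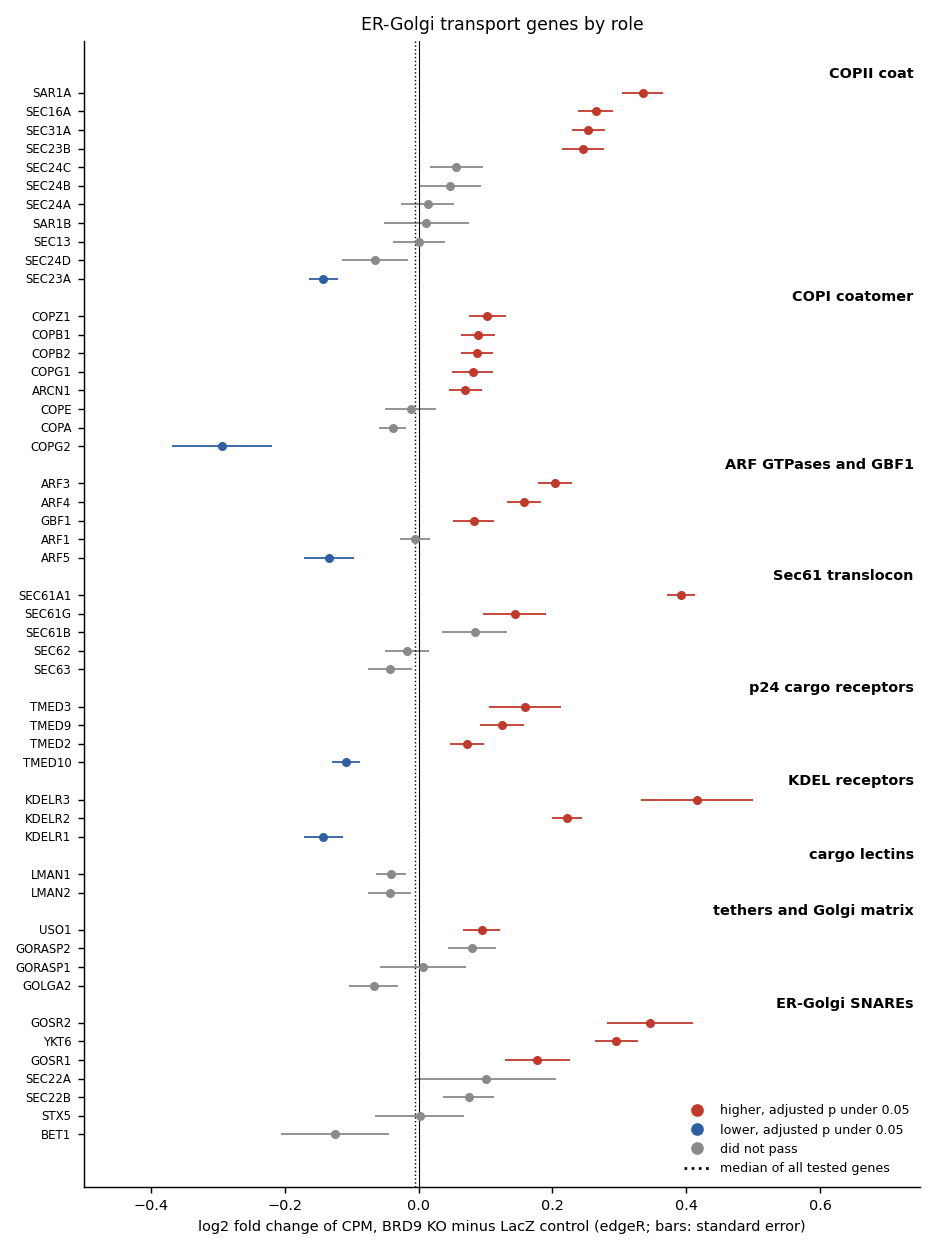
Each point is the log2 fold change of CPM of 1 tested member (x axis, BRD9 KO minus LacZ control, bars give the standard error), with members grouped by role on the y axis and coloured by the result of the test. SEC61A1, KDELR3, GOSR2, SAR1A and YKT6 lie furthest to the right, COPG2 furthest to the left, and the median of all tested genes is at -0.01.

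COPII is the forward coat, and 4 of 11 tested subunits rose and SEC23A fell, with a median log2 fold change of 0.05. The 45.5% called lay near the 49.0% of tested genes with at least 10 CPM. SAR1A, the GTPase that starts the coat, was at 149 and 155 CPM in the BRD9 KO libraries (replicate 1 first here and in what follows) and at 119 and 122 CPM in the LacZ control libraries (log2 fold change 0.33 ± 0.03, adjusted p = 4.23e-08). Its gene spans 71907045 to 71930279 on the minus strand of chromosome 10 (GRCh37). SEC16A, the scaffold of ER exit sites, stood at 195 and 197 CPM against 164 and 163 (log2 fold change 0.26 ± 0.03, adjusted p = 9.84e-08). The outer cage subunit SEC31A had 229 and 229 CPM against 195 and 190.1 (log2 fold change 0.25 ± 0.02, adjusted p = 7.17e-08). In these 3 genes the groups were well separated, and each of the 12 alternative analyses made the same call.

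SEC23 is the inner coat subunit that activates the GTPase of SAR1, and its 2 paralogs moved in opposite directions. SEC23B was at 127 and 128 CPM in BRD9 KO and 107 and 108 CPM in the controls (log2 fold change 0.25 ± 0.03, adjusted p = 2.98e-06). SEC23A was at 311 and 316 CPM against 337 and 354 (log2 fold change -0.14 ± 0.02, adjusted p = 3.8e-05). Neither pair of groups overlapped, and both calls were made by 11 of the 12 alternatives, the exception being limma on log2(TPM + 1), with an adjusted p of 0.125 for SEC23B (range 3.06e-12 to 0.125) and 0.0557 for SEC23A (range 1.93e-08 to 0.0557). Measured as a share of the summed TPM of the pair, SEC23A took 64.3% and 64.0% in the BRD9 KO libraries and 67.4% and 69.8% in the controls, and it was the more abundant paralog in every library (shares are descriptions and were not tested). SAR1A took 73.6% of the SAR1 pair in each BRD9 KO library, against 67.8% and 68.7% in the controls.

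SAR1B, the other SAR1 (0.01), did not pass, and neither did the 4 SEC24 paralogs, which select cargo, at log2 fold changes of 0.01 for SEC24A, 0.05 for SEC24B, 0.06 for SEC24C and -0.07 for SEC24D. SEC13, which shares the outer cage with SEC31A, was at 74.5 and 77.6 CPM against 75.4 and 76.4, a log2 fold change of 0.00. So the 2 cage partners gave different results, although the difference between them was not tested. By TPM, SEC31A was the most abundant COPII member with a mean of 144 over the 4 libraries, followed by SEC23A with 138. Each SEC24 paralog held between 21.5% and 31.0% of the SEC24 TPM in every library.

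Neither lectin that escorts glycoproteins forward passed. LMAN1 was at 228 and 228 CPM against 236 and 233 (log2 fold change -0.04 ± 0.02), and LMAN2, the more abundant of them with a mean TPM of 169.5, was at 141 and 133 CPM against 142 and 141 (-0.04 ± 0.03). With COPII, the 13 forward members counted 4 higher and 1 lower, or 38.5% called, below the 49.0% of tested genes with at least 10 CPM, and their median log2 fold change was 0.01.

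Of the 8 tested COPI coatomer subunits, 5 rose, each by no more than 0.10 on the log2 scale, 1 fell, and the median was 0.08. COPZ1, the zeta subunit, had 159 and 157 CPM in BRD9 KO against 147 and 147 in the controls (log2 fold change 0.10 ± 0.03, adjusted p = 0.0061). The beta-prime subunit COPB2 had 248 and 241 CPM against 233 and 228 (log2 fold change 0.09 ± 0.02, adjusted p = 0.00679). For the beta subunit COPB1 the levels were 215 and 211 CPM against 204 and 197 (log2 fold change 0.09 ± 0.03, adjusted p = 0.00908). All 3 were separated between the groups by margins of a few percent of their level.

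ARCN1, the delta subunit, followed at 199 and 200.05 CPM against 191 and 189 (log2 fold change 0.07 ± 0.02, adjusted p = 0.0317). COPG1, a gamma subunit, stood at 130.3 and 131 CPM against 125 and 122 (log2 fold change 0.08 ± 0.03, adjusted p = 0.043). These last 2 calls are weak: each was lost whichever library was left out, and with DESeq2 the adjusted p was 0.103 for ARCN1 (range 0.0199 to 0.313) and 0.152 for COPG1 (range 0.0253 to 0.258). COPZ1 lost its call on log2(TPM + 1) alone (adjusted p = 0.469, range 0.00171 to 0.469). COPB1 lost its call there too (adjusted p = 0.281), and COPB2 did not (0.0134). Both COPB1 and COPB2 lost theirs when BRD9 KO replicate 1 or LacZ control replicate 2 was left out. The number of coatomer genes called higher thus went from 5 to 1 without either of these libraries, and to 3 without either of the others.

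COPG2, the paralog of COPG1, was the coatomer gene that fell: 21.7 and 23.0 CPM against 28.9 and 26.0 (log2 fold change -0.29 ± 0.08, adjusted p = 0.00401). The groups did not overlap, but the call was lost with DESeq2 (adjusted p = 0.0575, range 0.00153 to 0.0864), on log2(TPM + 1) and without LacZ control replicate 1. COPG1 made up 68.1% and 68.2% of the TPM of the gamma pair in BRD9 KO and 61.2% and 62.5% in the controls. The weight of COPG2 in this share rests on a mean transcript length of only 847 to 853 bases in these files, since TPM divides by length. COPA, the alpha subunit (-0.04), and COPE, the epsilon subunit (-0.01), did not pass. COPZ2, the paralog of COPZ1, had 1 and 0 counts in BRD9 KO and 0 and 3 in the controls, at or under the floor, and was not tested. COPZ1 had the highest mean TPM of the coatomer, 158, with COPB2 next at 149.7.

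The ARF GTPases recruit COPI to the membrane once they are loaded with GTP, which GBF1 catalyses at the cis side of the Golgi. ARF3 had 221 and 228 CPM in BRD9 KO and 193 and 197 CPM in the controls (log2 fold change 0.20 ± 0.03, adjusted p = 2.49e-06). ARF4 had 209 and 208 CPM against 184 and 189 (log2 fold change 0.16 ± 0.03, adjusted p = 5.43e-05), a call that every alternative made. ARF3 lost its call on log2(TPM + 1) alone (adjusted p = 0.15, range 7.85e-13 to 0.15). ARF5 went the other way at 88.0 and 93.8 CPM against 101 and 98.6 (log2 fold change -0.13 ± 0.04, adjusted p = 0.00756). Its call was lost with DESeq2 (adjusted p = 0.129, range 0.00242 to 0.437), on log2(TPM + 1), and when BRD9 KO replicate 1 or LacZ control replicate 1 was left out. Per length ARF5 was at 166 and 174 TPM against 173 and 177, with overlapping groups.

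GBF1 was at 125 and 124 CPM against 117 and 118 (log2 fold change 0.08 ± 0.03, adjusted p = 0.0416), and lost its call whichever library was left out and with DESeq2 (adjusted p = 0.154, range 0.0261 to 0.357). ARF1, the most abundant of the group with a mean TPM of 241, was level at 242 and 245 CPM against 245 and 243 (log2 fold change -0.01 ± 0.02, adjusted p = 0.868). As shares of the 4 ARF genes' TPM, ARF4 held 29.3% and 28.6% in BRD9 KO against 26.7% and 26.6% in the controls, and ARF1 31.5% and 31.3% against 32.7% and 32.9%.

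KDEL receptors catch ER-resident chaperones in the Golgi and ride COPI vesicles back, and the 3 paralogs split. KDELR3, the scarcest with a mean TPM of 19.0, was at 20.4 and 21.9 CPM in BRD9 KO against 16.3 and 15.4 in the controls (log2 fold change 0.42 ± 0.08, adjusted p = 0.000529), and all 12 alternatives made that call. Its gene lies on chromosome 22 from 38864083 to 38879452, plus strand (GRCh37), and an exon of DDX17 overlaps it on the other strand. KDELR2 was at 259 and 258 CPM against 223 and 220.4 (log2 fold change 0.22 ± 0.02, adjusted p = 1.47e-07). It lost its call on log2(TPM + 1) (adjusted p = 0.0942, range 3.34e-16 to 0.0942), and DAGLB overlaps one of its exons on the same strand. KDELR1, the most abundant with a mean TPM of 227, fell: 194 and 193 CPM against 206 and 220.5 (log2 fold change -0.14 ± 0.03, adjusted p = 0.000622). Without LacZ control replicate 2, the higher of the controls, or on log2(TPM + 1), it no longer passed (adjusted p range 1.59e-05 to 0.0709).

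Summed over the 3 receptors the TPM was 441 and 432 in BRD9 KO against 430 and 447 in the controls, so that the total overlapped while its make-up moved. KDELR1 accounted for 49.2% and 49.9% of that sum in BRD9 KO and for 53.4% and 55.3% in the controls. The share of KDELR3 was 4.8% and 5.23% against 3.86% and 3.53%. Together the 16 tested retrograde members (COPI, ARF and GBF1, KDEL receptors) counted 10 higher and 3 lower, or 81.2% called, beside the same 49.0%, with a median log2 fold change of 0.08. Most of these members lay far above 10 CPM, and the 49.0% was not matched for level. Whether level bears on the difference was not tested. The retrograde share was lower whichever library was left out, in fits that take the spread from the other group alone. With all 4 libraries the share was 8 of 16 with DESeq2, and 18.8% (3 higher) with limma on log2(TPM + 1). The 49.0% belongs to the main fit, and calls over all tested genes also fell with any library left out. Those calls went from 3127 higher and 2774 lower to 2146 and 1439 with DESeq2, and to 1341 and 1103 with limma on log2(TPM + 1). The forward share stayed at 38.5% whichever library was left out and with DESeq2, and was 23.1% with limma on log2(TPM + 1). The difference between the forward and the retrograde members was not tested, and 7 of the 10 retrograde rises were of at most 0.16 on the log2 scale.

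**Figure D2:**
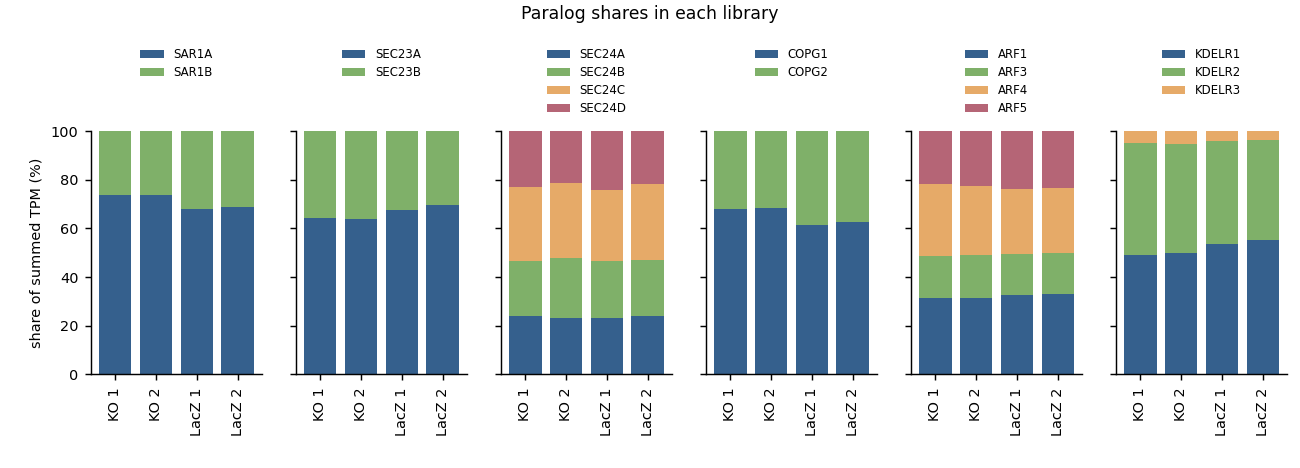
Stacked bars give, for 6 paralog families in each of the 4 libraries (x axis), the share of the family's summed TPM that each gene holds (y axis, %). SAR1A and COPG1 take a larger share in both BRD9 KO libraries, SEC23A and KDELR1 a smaller one, while the 4 SEC24 genes keep shares between 21.5% and 31.0% throughout.

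The p24 proteins travel in both kinds of vesicle and act as cargo receptors. All 4 members passed, where 49.0% of tested genes with at least 10 CPM did. TMED9 was at 109.9 and 111 CPM against 103 and 99.9 (log2 fold change 0.13 ± 0.03, adjusted p = 0.00515). TMED3 was at 50.8 and 46.7 CPM against 43.5 and 44.1 (log2 fold change 0.16 ± 0.05, adjusted p = 0.0246). For TMED2 the levels were 223 and 214 CPM and 211 and 206 (log2 fold change 0.07 ± 0.03, adjusted p = 0.0336). The groups did not overlap in any of them, yet DESeq2 did not call TMED3 (adjusted p = 0.131, range 0.00483 to 0.3) or TMED2 (0.104, range 0.0113 to 0.314). Both calls were also lost without BRD9 KO replicate 1 and without either LacZ control, and that of TMED2 with library totals alone. TMED9 lost its call without LacZ control replicate 2 (range over the alternatives 0.000903 to 0.0891). With limma on log2(TPM + 1), TMED9 (adjusted p = 0.0891), TMED3 (0.0944) and TMED2 (0.069) did not pass.

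Among the members that passed, TMED10 is the one whose direction hung on the scale. Its level was 325 and 339 CPM in BRD9 KO against 356 and 359.7 in the controls (log2 fold change -0.11 ± 0.02, adjusted p = 0.000337), below both controls. Per length it was 269 and 281 TPM against 249.6 and 270.1, with overlapping groups, and on log2(TPM + 1) the difference had the other sign (0.08, adjusted p = 0.276, range 4.62e-06 to 0.276). The mean transcript length behind these values was 2083 and 2077 bases in the BRD9 KO libraries against 2426 and 2265 in the controls. TMED10 was the most abundant of all 50 members, with a mean TPM of 267.

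The Sec61 channel admits proteins to the ER. SEC61A1 (ENSG00000058262.5), its pore-forming subunit, on the plus strand of chromosome 3 from 127770484 to 127790548 (GRCh37), was at 334 and 335 CPM in BRD9 KO and 252 and 257 CPM in the controls (log2 fold change 0.39 ± 0.02, adjusted p = 9.14e-12). This was the smallest p among the members, the BRD9 KO level was 131% of the control mean, and every alternative made the call. SEC61G, the gamma subunit and the most abundant of the group with a mean TPM of 227, was at 56.8 and 56.0 CPM against 49.6 and 52.4 (log2 fold change 0.14 ± 0.05, adjusted p = 0.0213). It lost its call with DESeq2 (adjusted p = 0.116, range 0.00572 to 0.156) and when BRD9 KO replicate 1 or LacZ control replicate 1 was left out. SEC61B, the beta subunit, was at 51.1 and 49.6 CPM against 47.5 and 47.6 and did not pass (0.08 ± 0.05, adjusted p = 0.186).

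SEC62 (-0.02) and SEC63 (-0.04), which help proteins through the channel after translation, did not pass. SEC63 was at 106 and 105 CPM against 108 and 110.3, slightly below both controls, while its TPM was 73.0 and 71.95 against 65.6 and 67.0, above both. Its mean transcript length was 2495 and 2500.3 bases in the BRD9 KO libraries against 2788 and 2785 in the controls.

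Among the tethers, USO1 (p115), which docks vesicles at the Golgi, was at 173 and 178 CPM against 167 and 162 (log2 fold change 0.09 ± 0.03, adjusted p = 0.0115). It was also the most abundant tether, with a mean TPM of 111, and lost its call with DESeq2 (adjusted p = 0.0505, range 0.00263 to 0.245), on log2(TPM + 1) and when BRD9 KO replicate 2 or LacZ control replicate 2 was left out. GOLGA2 (GM130), the receptor of USO1 on the cis-Golgi, did not pass at 81.2 and 80.8 CPM against 84.2 and 85.5 (-0.07 ± 0.04). On log2(TPM + 1), however, GOLGA2 passed as lower (-0.27, adjusted p = 0.0276, range 0.0276 to 0.583), at 44.6 and 46.4 TPM against 54.2 and 55.5. The Golgi stacking proteins GORASP1 (0.01) and GORASP2 (0.08, adjusted p = 0.0903) did not pass.

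Of the 7 SNAREs, 3 rose and none fell at the threshold. The 42.9% called lay near the 49.0% of tested genes with at least 10 CPM. GOSR2 (membrin), a cis-Golgi SNARE, was at 35.3 and 33.6 CPM against 26.3 and 28.0 (log2 fold change 0.35 ± 0.06, adjusted p = 0.000256). YKT6, a SNARE anchored by lipid rather than by a membrane span, was at 119 and 119 CPM against 96.8 and 97.5 (log2 fold change 0.30 ± 0.03, adjusted p = 4.31e-07). Both were separated between the groups and passed in all 12 alternatives, and YKT6 had the highest mean TPM of the group, 84.6. GOSR1 (GS28) was at 53.4 and 54.3 CPM against 46.3 and 48.7 (log2 fold change 0.18 ± 0.05, adjusted p = 0.0067), a call lost with DESeq2 (adjusted p = 0.0519, range 0.000753 to 0.142), on log2(TPM + 1) and without LacZ control replicate 1.

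STX5 (0.00), the syntaxin that pairs with GOSR2 and BET1 in fusion at the cis-Golgi, was level at 28.7 and 30.5 CPM against 30.3 and 28.8. BET1 (-0.12), SEC22A (0.10) and SEC22B (0.07) did not pass either. With 22.8 and 19.96 CPM against 22.6 and 24.1, BET1 overlapped between the groups. SEC22B, the SNARE that works with STX5, passed in 1 alternative (adjusted p range 0.0188 to 0.597), and it held 83.8% to 85.9% of the TPM of the SEC22 pair.

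**Figure D3:**
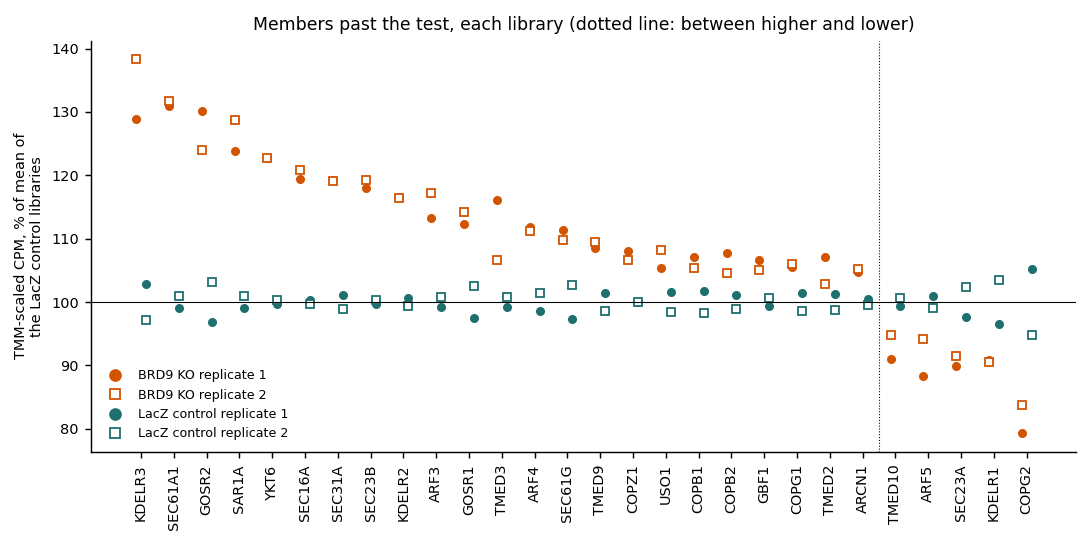
For the 28 members past the test (x axis, ordered by log2 fold change), each symbol is the TMM-scaled CPM of 1 library as a percent of the mean of the LacZ control libraries (y axis, which does not start at 0). In every gene shown the BRD9 KO symbols lie on the same side of both controls, by a wide margin in KDELR3, SEC61A1 and SAR1A and a narrow one in TMED2 and ARCN1.

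Summed by role, TPM was higher in both BRD9 KO libraries than in both controls for the Sec61 group (733 and 713 against 631 and 651), the SNAREs (333 and 334 against 297 and 303), the p24 proteins (650.4 and 654 against 593 and 612) and COPII (734 and 742 against 688 and 697). COPI (915 and 939 against 891 and 896) and the ARF group with GBF1 (789.9 and 809 against 761 and 781) were also apart, by less. The lectins were lower (244 and 234 against 247 and 247), and the sums of the KDEL receptors and of the tethers overlapped. TPM is a share of each library's RNA, so these sums carry no absolute amount. TPM also divides by mean transcript length. That length was shorter by at least 5% in BRD9 KO for COPB2, TMED10 and SEC63, and longer for 6 members. The part of length in these sums was not tested.

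The deposited tables also hold the mean transcript length of each gene, weighted by the estimated abundance of its isoforms. As a description chosen after the values were seen, with no test, 9 of 49 tested members (18.4%) had lengths that did not overlap between the groups and differed by at least 5%, near the 17.5% of all tested genes. GOLGA2 was the furthest, at 3097 and 2966 bases in the BRD9 KO libraries against 2637 and 2610.3 in the controls. SEC23B, ARF3, KDELR2, STX5 and SEC22A were likewise longer in BRD9 KO, while TMED10, SEC63 and COPB2 were shorter. For KDELR2, whose count rose, the lengths were 2191 and 2287 bases in the BRD9 KO libraries against 2079.9 and 2041 in the controls. For SEC23B they were 2963 and 2949 bases in the BRD9 KO libraries against 2645 and 2847 in the controls, and its TPM rose less than its CPM.

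**Figure D4:**
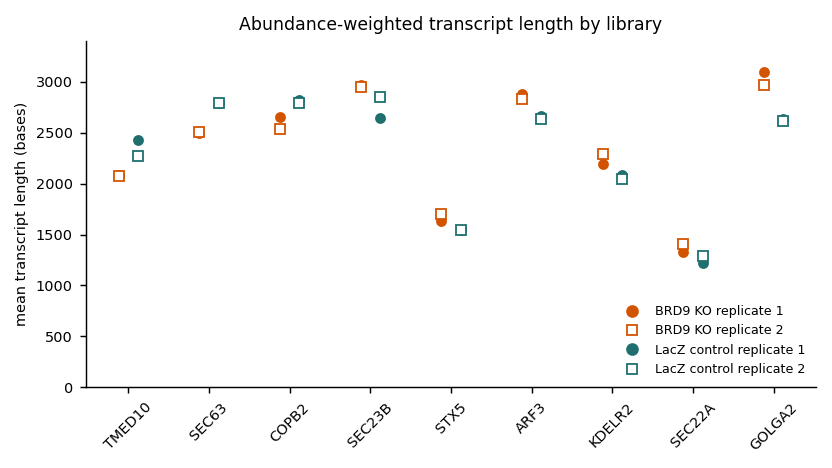
Mean transcript length in bases (y axis) in each of the 4 libraries for the 9 members (x axis) whose lengths were apart between the groups by at least 5%. TMED10, SEC63 and COPB2 are shorter in both BRD9 KO libraries and the other 6 longer, most of all GOLGA2.

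Promoter windows of 300 bases, 250 before and 50 after a transcription start, were at hand for 45 of the 50 genes (57 windows, RefSeq on GRCh38.p14), and not for SEC24D, ARF4, TMED9, KDELR2 and USO1. They were searched on both strands for 5 motifs tied to ER stress or general promoter activity. The core TGACGTGG, a sequence bound by unfolded protein response factors and written CCACGTCA on the other strand, was found in 11 of the 45 genes (24.4%), against 1.29% of the 9559 tested genes with a window and 0.729% of all 35116 windows. The 12 sites are printed because, of the 5 motifs, this core had the largest ratio of its share among the members to its share among tested genes. Each line gives the gene strand 5′ to 3′ with GRCh38.p14 coordinates, and capitals mark the core.
ARF1 (chr1:228082680-228082711, plus strand): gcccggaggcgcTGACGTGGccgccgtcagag
COPA (chr1:160343226-160343257, minus strand): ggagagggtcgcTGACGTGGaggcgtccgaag
COPB1 (chr11:14499840-14499871, minus strand): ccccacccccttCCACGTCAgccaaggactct
COPB2 (chr3:139389824-139389855, minus strand): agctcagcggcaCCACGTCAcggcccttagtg
COPB2 (chr3:139389631-139389662, minus strand): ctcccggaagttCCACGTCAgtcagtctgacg
GBF1 (chr10:102245525-102245556, plus strand): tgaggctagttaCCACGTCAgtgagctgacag
KDELR3 (chr22:38468038-38468069, plus strand): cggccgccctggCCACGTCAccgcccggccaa
SEC16A (chr9:136484706-136484737, minus strand): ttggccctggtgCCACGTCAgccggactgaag
SEC23A (chr14:39103220-39103251, minus strand): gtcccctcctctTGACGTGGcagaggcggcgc
SEC24A (chr5:134648594-134648625, plus strand): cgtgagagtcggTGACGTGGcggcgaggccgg
SEC62 (chr3:169966778-169966809, plus strand): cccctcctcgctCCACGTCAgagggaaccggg
STX5 (chr11:62832048-62832079, minus strand): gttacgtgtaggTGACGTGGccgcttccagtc

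Most of the sites lay close to the annotated start. With the start base counted as 0, the core began between -48 and 15 in ARF1, COPA, COPB1, GBF1, KDELR3, SEC16A, SEC23A, SEC62 and STX5, and at -179 in SEC24A. COPB2 has 2 starts in the table, and its sites began at -196 and -3 from 1 of them. For every window shown except that of SEC16A, a stretch just after the start was found within an annotated transcript of the gene. That check does not show that a transcript begins there. The letters were present in subunits of both coats (COPA, COPB1 and COPB2, and SEC16A, SEC23A and SEC24A) and in genes with and without a change: 5 of the 11 genes rose, SEC23A fell and 5 did not pass. Their median log2 fold change was 0.01, against 0.07 for the 33 tested members with a window and without the core, of which 14 rose and 4 fell. KDELR3 and SEC23A, whose sites are printed above, had log2 fold changes of 0.42 and -0.14.

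Of the other motifs, the ETS factor core CCGGAAG stood in 22 of the 45 genes (48.9%) against 22.5% of tested genes. The CCAAT box CCAAT was in 17 (37.8%) against 43.1%. The cyclic AMP response element core TGACGTCA was in none of the 45 genes (3.86% of tested genes), and so was the full ER stress response element (0.157% of tested genes), which joins CCAAT and CCACG over 9 bases and shares its CCACG end with the core above. A match says only that these letters are in the window.

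Genes of the unfolded protein response were followed beside the members. Of 18, 2 rose (11.1%), 6 fell (33.3%) and 10 did not pass, with a median log2 fold change of -0.07. The 44.4% called lay near the 49.0% of tested genes with at least 10 CPM, of which 27.7% were higher and 21.2% lower. HSP90B1 (GRP94), an ER chaperone with a KDEL tail, was at 1029 and 1015 CPM in BRD9 KO against 1167 and 1168 (log2 fold change -0.19 ± 0.01, adjusted p = 5.65e-11). XBP1, a transcription factor of the response, was at 115 and 112 CPM against 141 and 140.3 (log2 fold change -0.31 ± 0.03, adjusted p = 9.78e-08). CREB3L2, a membrane-bound factor that can activate COPII genes, was at 91.8 and 95.0 CPM against 72.5 and 74.2 (log2 fold change 0.35 ± 0.04, adjusted p = 4.44e-07). Its paralog CREB3L1, named after its values were seen, went the other way with the largest change of the 18, at 25.2 and 26.1 CPM against 37.3 and 36.5 (log2 fold change -0.53 ± 0.06, adjusted p = 1.38e-06), and passed in all 12 alternatives. HSPA5 (BiP), the main ER chaperone, was named after its values were seen and was level at 689 and 698 CPM against 686 and 690.4 (log2 fold change 0.01 ± 0.01). DNAJB9, the other of the 2 rises, was also named after its values were seen. It was at 38.9 and 38.6 CPM against 31.8 and 30.1 (log2 fold change 0.33 ± 0.06, adjusted p = 0.000189), and passed in all 12 alternatives.

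Other genes of ER entry and ER-Golgi transport were counted from lists, 94 tested genes in all, of which 34 rose (36.2%) and 8 fell (8.51%). Their 44.7% called lay near the 38.6% of all tested genes and the 49.0% of those with at least 10 CPM, and their median log2 fold change was 0.08. Among 13 further COPII and exit-site factors 5 rose and 1 fell. ERGIC1, a cycling protein of the ER-Golgi intermediate compartment, changed by 0.36 ± 0.03 and TFG, which organises exit sites, by 0.20 ± 0.03, both on the log2 scale and in every alternative. MIA3 (TANGO1), which loads collagen into COPII carriers, stood at -0.13 (adjusted p = 0.0136), a call lost with DESeq2 (adjusted p = 0.178, range 0.00246 to 0.251), on log2(TPM + 1), and when BRD9 KO replicate 1 or LacZ control replicate 2 was left out. Of 6 other p24 proteins TMED5 (0.21) and TMED4 (0.16) rose. Of 9 ARF regulators and further ARFs 5 rose and none fell, with the exchange factor ARFGEF2 at 0.27, the GTPase activator ARFGAP1 at 0.23 and the ARF-binding ARFIP2 at 0.31.

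Of 9 genes of the NRZ tether, which receives COPI vesicles at the ER, and of SNAREs and their partners in retrograde traffic, 2 rose and 2 fell. STX18, the ER syntaxin for retrograde vesicles, was at 86.3 and 83.2 CPM against 110.0 and 104 (log2 fold change -0.33 ± 0.04, adjusted p = 5.87e-07), and NBAS, part of the tether there, at 56.0 and 54.1 CPM against 64.3 and 63.2 (log2 fold change -0.21 ± 0.04, adjusted p = 0.000731). BET1L, a Golgi SNARE, rose by 0.17 (adjusted p = 0.0209) and lost its call with DESeq2 (adjusted p = 0.12, range 0.00384 to 0.254), on log2(TPM + 1), and without BRD9 KO replicate 1 or either control. The other rise, SCFD2 (0.28), named after its values were seen, lost its call with DESeq2 (adjusted p = 0.188, range 0.034 to 0.264), on log2(TPM + 1) and whichever library was left out. NSF (0.24) and NAPA (0.23), the ATPase and the adaptor that take spent SNAREs apart, rose, while the other 2 adaptors did not pass.

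Of 14 subunits of TRAPP, a tether of COPII vesicles, 3 rose and 1 fell. The 28.6% called lay below the 49.0% of tested genes with at least 10 CPM. The rises were TRAPPC3 (0.30), TRAPPC10 (0.29) and TRAPPC2L (0.26). Of 8 subunits of COG, a tether within the Golgi, only COG2 passed (0.21), or 12.5%, also below that share. COG2 did not pass on log2(TPM + 1) or without LacZ control replicate 1. The golgins, long coiled-coil tethers, were called most often of these lists: 7 of 11 rose and 1 fell. Their 72.7% called, beside the same 49.0%, is the highest of several small lists and was not tested. TRIP11 (GMAP-210) was at 83.8 and 85.8 CPM against 62.0 and 63.2 (log2 fold change 0.44 ± 0.04, adjusted p = 2.25e-08), and GOLGA3 (0.37) and GOLGA4 (0.23) rose as well, while the member GOLGA2 did not pass on the CPM scale.

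On the ER entry side, 2 of 8 genes of the signal recognition particle and its receptor rose and 1 fell: SRPRB (0.29) and SRP68 (0.20) rose, and SRP9 fell (log2 fold change -0.10, a call lost with DESeq2, on log2(TPM + 1) and without LacZ control replicate 2, adjusted p 0.000355 to 0.149). Of 12 translocon partners and signal peptidase subunits 5 rose and 2 fell. SSR1, a translocon-associated protein, was at 290.0 and 291 CPM against 252 and 256 (log2 fold change 0.19 ± 0.02, adjusted p = 4.81e-07), TRAM1 rose (0.14), and the peptidase subunit SPCS3 fell (log2 fold change -0.21). Among the genes named from these lists, TMED5, ARFGEF2, ARFGAP1, NBAS, NSF, NAPA, TRAPPC10, GOLGA3, SRPRB, SRP68 and TRAM1 lost their calls on log2(TPM + 1) and under no other alternative.

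**Figure D5:**
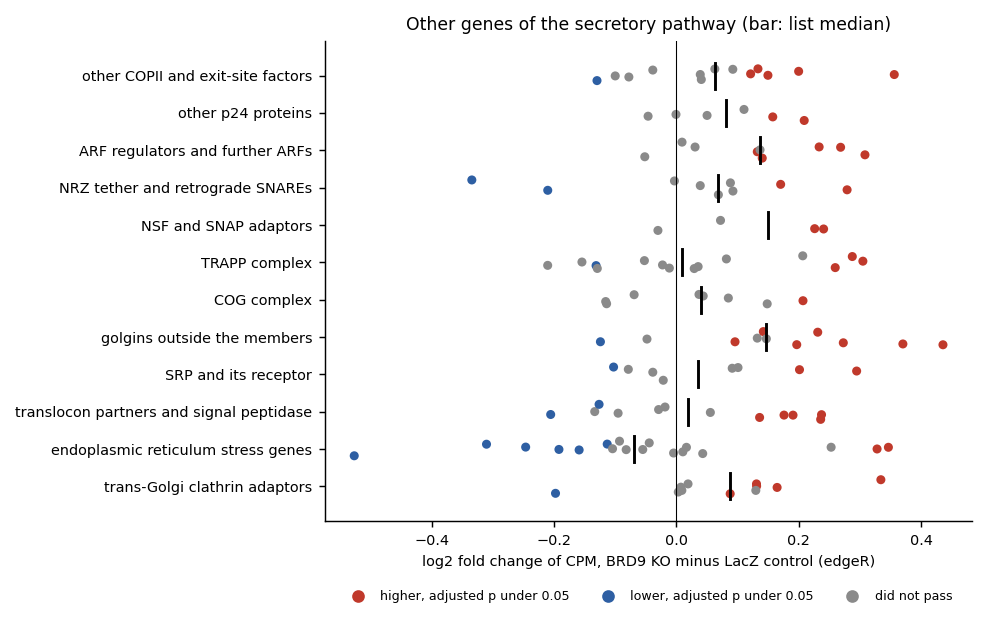
Each point is the log2 fold change of CPM (x axis, BRD9 KO minus LacZ control) of 1 tested gene in 12 lists of secretory pathway genes outside the 50 members (y axis), coloured by the test, with the list median as a bar. The golgins have 7 of 11 points called higher, and the ER stress genes 6 of 18 called lower.

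Some values rest on reads that could belong to a neighbour. The kit does not mark strand, and in 17 tested members an exon overlaps a gene on the other strand, among them SEC61A1 (RUVBL1), KDELR3 (DDX17), SEC31A (THAP9), COPB2 (MRPS22), ARF5 (GCC1), USO1 (G3BP2), YKT6 (CAMK2B), SEC16A, TMED2 and the pair SAR1B and SEC24A, which overlap each other. SEC31A, KDELR2 and SEC22A overlap a gene on the same strand. The part of these overlaps in the results was not tested. The deposited uncertainty of assigning reads to genes was under 1% of the count for every tested member except SEC22A, for which it reached 2.34%.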

How the data were processed

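Total RNA of G401 cells was made into libraries with a NEBNext Ultra kit, 2 per group; labels and methods name different RNA extraction steps. Reads had been aligned by the authors with STAR (hg19), and they made the deposited expected counts (estimated counts) and TPM with RSEM, which divides reads shared between genes by a model and applies no scaling between libraries. No versions are given. Counts were rounded to whole numbers and tested with edgeR 4.0.16 in R 4.3.3 (TMM, filterByExpr, 15288 genes kept, robust quasi-likelihood fit, two-sided, no covariate). The authors' TPM served for levels between genes and, as log2(TPM + 1), for limma 3.58.1. Standard errors follow from the F statistic.

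The 12 alternatives were DESeq2 1.42.0, its size factors (RLE), library totals, no filter, at least 1 CPM in all 4 libraries, replicate number as a block, limma on log2(TPM + 1), no mitochondrially encoded genes, and each library left out in turn, which takes the spread from the other group. Counts were also taken at an adjusted p under 0.01. Libraries of a group differed beyond sampling noise (chi-square per degree of freedom 1.57 and 1.60 over genes with at least 20 counts). The methods of the study call the replicates biological, and the labels do not say whether they were separate cultures, so p-values measure the spread between libraries, which may be technical. Coordinates are of GENCODE v44 on GRCh37, and overlaps were found with bedtools 2.31.1.

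All passing members are named with each library's value, the others by log2 fold change, and from each further list up to 3 genes by smallest p. Not every gene that rule took is printed. The members and lists were chosen with earlier results of these data known.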

Additional observations from a re-analysis of the deposited data

How the results depend on the processing

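Members called higher and lower, 23 and 5, numbered 15 and 3 with DESeq2, 10 and 1 with limma on log2(TPM + 1), where the 1 was GOLGA2 and none of the 5 kept its call, and 14 to 19 and 3 to 5 with a library left out. All tested genes called higher numbered 3127, and 1341 with limma on log2(TPM + 1). Those called lower, 2774, numbered 1439 with DESeq2, 1103 with limma on log2(TPM + 1) and 1838 to 2268 with a library left out. The 5 higher coatomer genes numbered 3 with DESeq2, 1 with limma on log2(TPM + 1), 3 at an adjusted p under 0.01 and 1 to 3 with a library left out. The COPII median of 0.0476 became 0.0649 with DESeq2, 0.0645 with no filter on low counts and 0.0294 to 0.0737 with a library left out, and the coatomer median of 0.0754 became 0.0622 to 0.0929. TMED10 reversed to 0.0805 on log2(TPM + 1). The cause of these shifts was not tested, other than that leaving out a library leaves fewer samples.

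Of the 28 members called, 8 passed in all 12 alternatives: SAR1A, SEC31A, SEC16A, ARF4, SEC61A1, KDELR3, GOSR2 and YKT6. DESeq2 lost 10, limma on log2(TPM + 1) 18, and leaving out some library 14. Other scalings moved the median of all genes by at most 0.0138 on the log2 scale. With the replicate number as a block, 23 members were higher and 5 lower, and 3226 and 2883 of all tested genes. Replicate numbers are shared by the groups, but deviations of same-numbered libraries correlated at -0.054 across genes, so that the numbers were not taken to pair the samples. Depth limits the scarce members most: COPZ2 could not be tested.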

Other observations

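The clathrin adaptors of the trans-Golgi, which sort cargo leaving the Golgi rather than between it and the ER, held 5 rises and 1 fall among 11 tested genes. Their 54.5% called lay near the 49.0% of tested genes with at least 10 CPM. AP1S1, a subunit of the AP-1 adaptor, was at 66.7 and 65.4 CPM in BRD9 KO against 52.5 and 52.4 in the controls (log2 fold change 0.33, adjusted p = 3.15e-06, edgeR). GGA2, a monomeric adaptor, was at 109.9 and 107 CPM against 94.6 and 98.8 (0.16, adjusted p = 0.000864), and the large AP-1 subunit AP1G1 stood at a log2 fold change of 0.13 (adjusted p = 0.00139). In each of these genes the groups did not overlap. AP1S1 passed in all 12 alternatives. GGA2 and AP1G1 lost their calls with limma on log2(TPM + 1) alone (adjusted p = 0.157 and 0.919). The clathrin heavy chain CLTC, named after its values were seen, was at 1039.7 and 1058 CPM against 1034 and 1049.6 and did not pass.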
